A study of Homo sapiens with 2 samples.

Results

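Integrin-linked kinase (ILK), talin 1 and the adaptor proteins that couple integrins to actin were examined as 10 genes, ILK, PARVA, LIMS1, TLN1, VCL, PXN, PTK2, ZYX, FERMT1 and FERMT2, in HSC-3 cells grown on Myogel or on plastic. HSC-3 is an established line from an aggressive human squamous cell carcinoma of the oral tongue. Myogel is a gelatinous protein extract of human uterine leiomyoma, a benign smooth muscle tumor. The members were all probe sets of the array that the platform annotation assigns to 1 gene symbol, that symbol being one of the 10, and this gave 31 probe sets out of 41091 with 1 symbol. The 10 genes stand among 19775 genes measured in this way.

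Both groups used the same cells, which were labelled with a red fluorescent protein (RFP) by stable lentiviral transduction. The particles were controls that held a non-coding sequence, and puromycin had been used to keep the transduced cells. The cells were cultured in 1:1 DMEM/F-12 with heat-inactivated fetal bovine serum, antibiotics, ascorbic acid and hydrocortisone. For the arrays 90000 cells were seeded into 6-well plates, with 3 wells for each surface, RNA was extracted on the next day, equal amounts from the wells were combined, and the pool was put on 1 array of the type Affymetrix Human Genome U133 Plus 2.0. The treatment label speaks of uncoated plates in both cases, while the title, the source name and the description of the series give a Myogel coating for one of them. There was thus 1 array for each surface, no value has a replicate error, and no p-value is given.

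Focal adhesions are the sites where integrins, the receptors for matrix proteins, are tied to actin filaments inside the cell. Talin and the kindlins bind the cytoplasmic tail of the beta integrin subunit and switch the receptor to its active state, and the complex of ILK, PINCH and parvin is recruited there as a scaffold. Vinculin reinforces the link between talin and actin under force, paxillin and focal adhesion kinase (FAK) pass on the signal of adhesion, and zyxin marks mature adhesions and stress fibers. The comparison of the arrays asked whether a matrix coating goes with other RNA levels of this machinery than bare plastic.

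The intensities were those deposited by the authors, on a linear scale with a lowest value of 1, and fold change (FC) is the intensity on Myogel divided by that on plastic, taken without additional scaling. The median log2 FC over all probe sets was -0.11, so that a small negative value is the rule on these arrays, mainly among dim probe sets. Among probe sets with 1 gene symbol it was -0.24 for those with a mean signal below 142, the median over genes. For those at or above 142 it was -0.04. Setting the median ratio of all probe sets to 0, as is done below, therefore raises bright probe sets by more than their own median. Values of marker genes were summed within a list to compare the surfaces, and the sums are not comparable between lists. The squamous list, with 7 of 11 markers measured, had 64608 on plastic and 60959 on Myogel. The lists for smooth muscle, fibroblasts, endothelium and blood, with 8, 8, 6 and 5 measured genes, had sums of 853, 765, 349 and 685 on plastic and of 852, 783, 299 and 724 on Myogel. In the smooth muscle list 2 genes were higher and 2 lower by FC 1.5 on Myogel. Among them CNN1 went from 17.6 on plastic to the floor of 1 on Myogel, and PLN went from 1.21 to 49.9. Among the 27 genes of these other lists, 6 were higher and 6 were lower by FC 1.5 on Myogel, together 44.4% against 27.3% of all genes. Most of the 27 are dim. Only 7 had a mean signal of 142 or above, and of these 0 were higher and 0 lower by FC 1.5. The control probe sets also differed between the arrays. The ratio of the 3′ to the 5′ probe set of ACTB was 3.19 on plastic and 6.10 on Myogel, that of GAPDH was 1.10 and 1.22, and all 24 probe sets for the labelling spike-in RNAs had lower values on the Myogel array, with log2 FCs from -2.75 to -0.98. The part of these differences in the values below was not tested.

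ILK had a lower value on Myogel in its 1 probe set, and TLN1 had a much lower value in 1 of its 3 probe sets. The brightest probe sets of PARVA, VCL, PTK2, FERMT1 and FERMT2 had nearly the same values on both surfaces, and the brightest probe set of ZYX was 1.30-fold higher on Myogel. With FC 1.5 or more, 2 of the 31 probe sets had a higher and 4 a lower value on Myogel, which left 25 inside. These 6 are 19.4% of the members, where 34.1% of all probe sets with 1 gene symbol had FC 1.5 or more, 12.3% being higher and 21.8% lower. By the brightest probe set of each gene, 0 of the 10 genes were higher and 2 (ILK and LIMS1) were lower, against 9.71% and 17.5% of all genes. LIMS1 was dim there, with 22.5 on plastic and 13.0 on Myogel, and brighter probe sets shared with its copies were higher on Myogel. With FC 1.2 or more, 4 probe sets had a higher and 12 a lower value, against 20.9% and 36.1% of all probe sets with 1 symbol, and for genes 1 was higher and 3 were lower, against 18.1% and 30.8%. With FC 2 or more, 3 probe sets remained, against 21.6% of all. With both FC 1.5 and a change of 100 linear units or more asked for, 2 probe sets, those of ILK and TLN1, were left, against 1.72%. The median log2 FC was -0.06 over the 31 probe sets and -0.10 over all probe sets with 1 symbol.

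**Figure D1:**
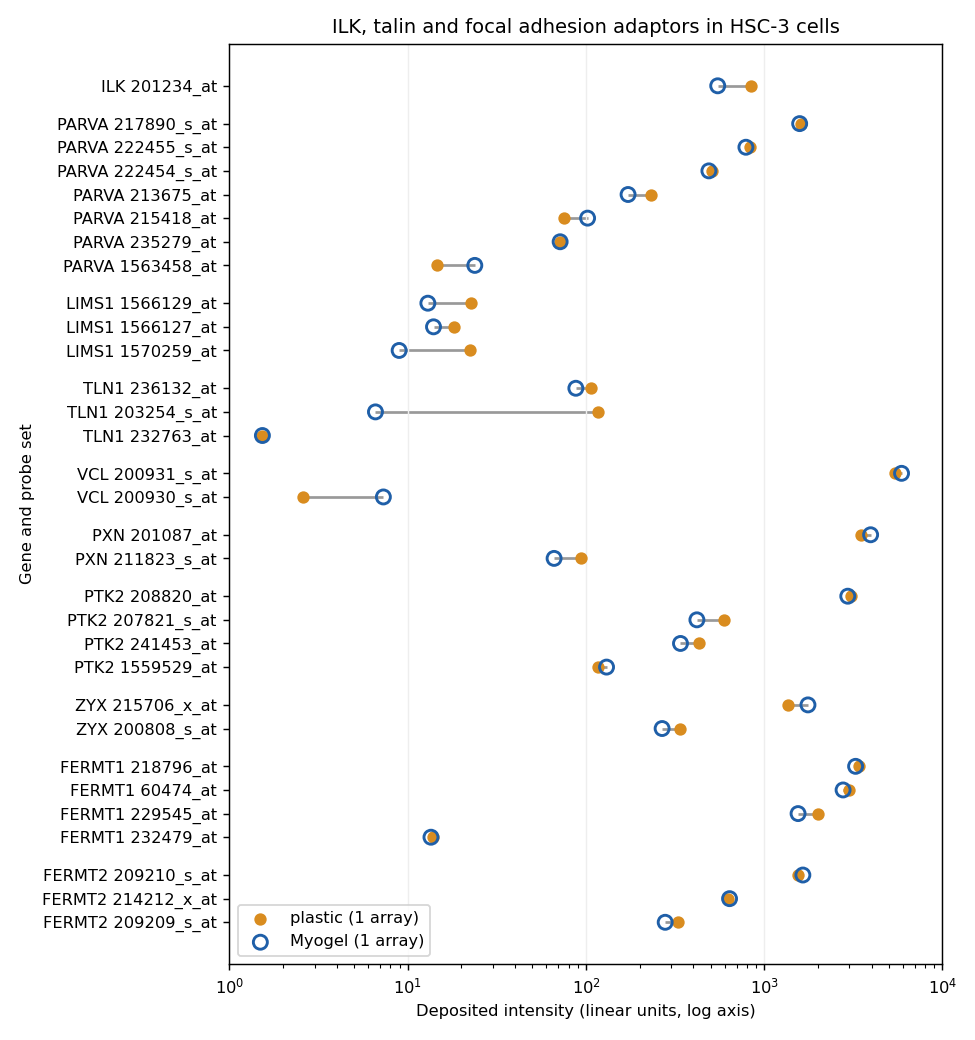
Deposited intensity (x axis, linear units on a log axis) of each of the 31 probe sets (y axis, with the gene) on plastic (filled orange points) and Myogel (open blue points), 1 array each. Most pairs of points nearly coincide, while TLN1 203254_s_at goes from 117 on plastic to 6.59 on Myogel and ILK from 848 to 548.

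Dim probe sets vary more between the arrays than bright ones, so each member was set beside the 1000 probe sets nearest to it in mean log2 signal. This describes the 2 arrays and is not a test. In 29 of the 31 member probe sets the log2 FC lay inside the range that held 95% of the neighbours. The 2 outside it were ILK 201234_at and TLN1 203254_s_at, both lower on Myogel. A range that holds 95% leaves some probe sets outside by definition, and 2 of 31 is near that share. Of the 18 member probe sets with a geometric mean of the 2 arrays at or above 142, the median over all genes, 0 had a higher and 1 a lower value by FC 1.5 or more, against 1.74% and 3.25% (4.98% together) of all such probe sets. Of the 13 below it 5 (38.5%) passed FC 1.5, against 53.9% of all probe sets below it. Probe sets bind their targets with different strength, so levels are compared between surfaces and not between genes.

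**Figure D2:**
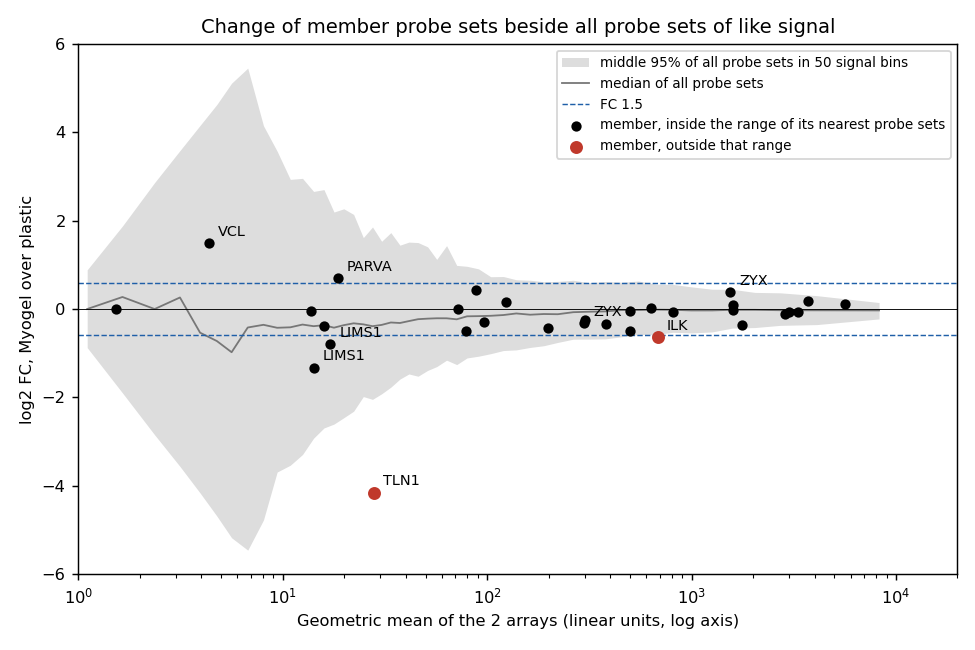
Difference between the surfaces as log2 FC (y axis, Myogel over plastic) against the geometric mean of the 2 arrays (x axis, linear units on a log axis) for the 31 member probe sets. The grey band holds the middle 95% of all probe sets in 50 bins of signal and the grey line their median, dashed lines mark FC 1.5, and the red points, ILK at -0.63 and TLN1 at -4.16, lie outside the range of their nearest probe sets.

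The ILK, PINCH and parvin complex was represented by ILK itself, PARVA and LIMS1. ILK, a pseudokinase that holds the complex together, had 848 on plastic and 548 on Myogel in its 1 probe set, 201234_at. It was 1.55-fold lower on Myogel (log2 FC -0.63), while 95% of the nearest probe sets lay between -0.58 and 0.56 and 21 of the 1000 had a log2 FC as low or lower. FC 1.5 was passed as deposited and after quantile normalization, loess centring or an added offset of 16 or 50, with log2 FCs from -0.63 to -0.59. When the median log2 ratio of all probe sets was set to 0, the log2 FC was -0.52 and FC 1.5 was not reached. No second probe set was there to set beside it. In a culture of 1 cell type measured in bulk, less ILK RNA per cell and fewer cells that express it cannot be told apart.

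PARVA encodes alpha-parvin, which binds ILK and actin filaments, and had 7 probe sets. The brightest, 217890_s_at, had 1599 on plastic and 1580 on Myogel, 222455_s_at had 827 and 789, and 222454_s_at had 508 and 489. These 3 had log2 FCs of -0.02, -0.07 and -0.05, differences of at most 1.05-fold, and were between 0.04 and 0.09 when the median ratio of all probe sets was set to 0. The dimmer 213675_at had 231 on plastic and 172 on Myogel, 215418_at had 75.6 and 102, and 235279_at had 71.7 and 71.6. The dimmest, 1563458_at, had 14.6 and 23.8, which is 1.63-fold higher, yet 95% of the probe sets nearest to it lay between -2.61 and 2.14 on the log2 scale. As deposited, PARVA thus had 5 lower and 2 higher probe sets. With the median ratio set to 0 only 213675_at was lower, at -0.32.

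LIMS1 encodes PINCH-1, a protein of LIM domains that binds the ankyrin repeats of ILK. Its 3 probe sets were all dim. In 1566129_at the value was 22.5 on plastic and 13.0 on Myogel, in 1570259_at it was 22.4 and 8.95, and in 1566127_at it was 18.23 and 13.95. The first pair had FC 1.5 or more, being 1.74-fold and 2.51-fold lower, but all 3 lay well inside the ranges for their signal, which reached from -2.67 or below to 2.65 or above. With an offset of 50 their log2 FCs were between -0.30 and -0.09. Another 2 probe sets match LIMS1 together with its near-identical copies and were not counted, since they cannot be assigned to 1 gene. The one shared with LIMS4, 207198_s_at, had 1697 on plastic and 2161 on Myogel, and the one shared with LIMS3 and LIMS4, 212687_at, had 2452 and 2652. Both were higher on Myogel, by 1.27-fold and 1.08-fold, in the opposite direction to the 3 dim probe sets and inside the ranges for their signal.

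Among the proteins that activate integrins, TLN1 encodes talin 1, which joins the beta integrin tail to actin. In 203254_s_at the value was 117 on plastic and 6.59 on Myogel, 17.8-fold lower, while 95% of the nearest probe sets had a log2 FC between -2.06 and 1.72. None of the 1000 probe sets nearest in mean signal, and none of the 1000 nearest in the plastic value, had a log2 FC as low as its -4.16. The size of the difference depends on how near the Myogel value is to the floor. It was -2.56 on the log2 scale with an offset of 16 and -1.57 with an offset of 50, and FC 1.5 was passed under each of the 6 treatments of the values.

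The other probe sets of TLN1 did not show a difference of this size. In 236132_at, the brightest by mean signal, the value was 107 on plastic and 87.7 on Myogel (log2 FC -0.29, with 95% of its neighbours between -1.02 and 0.82). In 232763_at it was 1.53 on both. TLN1 therefore rests on 3 dim probe sets, of which 203254_s_at is the one whose annotation cites a RefSeq mRNA.

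The kindlins work with talin at the same integrin tail. FERMT1 encodes kindlin-1, the kindlin typical of epithelia, and had 4 probe sets. The values were 3400 on plastic and 3255 on Myogel in 218796_at, 2970 and 2769 in 60474_at, 2000 and 1548 in 229545_at, and 13.9 and 13.5 in the dim 232479_at. All 4 were lower on Myogel as deposited, the brightest by 1.04-fold. The largest difference, in 229545_at, was 1.29-fold (log2 FC -0.37), inside the range of -0.42 to 0.42 for its signal and with 44 of the 1000 nearest probe sets as low or lower. With the median ratio set to 0 only 229545_at was lower, at -0.26, and 232479_at had log2 FCs of 0.36 and 0.33 after quantile normalization and loess centring.

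FERMT2 encodes kindlin-2, which is found in most adherent cells, binds ILK and had 3 probe sets. The values were 1544 on plastic and 1647 on Myogel in 209210_s_at, 625 and 639 in 214212_x_at, and 328 and 278 in 209209_s_at. Their log2 FCs were 0.09, 0.03 and -0.24, each inside the range for its signal. The kindlins thus had values within FC 1.3 in all 7 probe sets.

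VCL, PXN and PTK2 encode vinculin, paxillin and FAK. Vinculin, which crosslinks talin and actin, had 5437 on plastic and 5893 on Myogel in 200931_s_at, or 1.08-fold higher (log2 FC 0.12, with 95% of the nearest probe sets between -0.30 and 0.25). Its other probe set, 200930_s_at, was close to the floor with 2.59 and 7.30, and its 2.82-fold higher value lay inside a range of -4.45 to 4.42. Paxillin, a scaffold that binds vinculin and FAK, had 3469 on plastic and 3952 on Myogel in 201087_at and was 1.14-fold higher. In 211823_s_at it had 93.6 and 66.2, a log2 FC of -0.50 in the other direction, and both lay inside the ranges for their signal.

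FAK, the tyrosine kinase that autophosphorylates when integrins cluster, is encoded by PTK2 and had 4 probe sets. The value was 3065 on plastic and 2942 on Myogel in the brightest, 208820_at, a difference of 1.04-fold that turned to a log2 FC of 0.05 with the median ratio set to 0. In 207821_s_at it was 594 and 419 and in 241453_at it was 431 and 339. These 2 were lower on Myogel by 1.42-fold and 1.27-fold, while 1559529_at, with 116 and 130, was higher. For 207821_s_at 54 of the 1000 nearest probe sets had a log2 FC of -0.50 or lower. No probe set of PTK2 reached FC 1.5, and all were inside the ranges for their signal.

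ZYX encodes zyxin, a LIM protein that brings VASP to adhesions and stress fibers, and its 2 probe sets went in opposite directions. In 215706_x_at the value was 1352 on plastic and 1759 on Myogel, 1.30-fold higher (log2 FC 0.38), the highest log2 FC of the 18 brighter member probe sets. Among its neighbours 95% lay between -0.44 and 0.42 and 31 of the 1000 were as high or higher. In 200808_s_at the value was 335 on plastic and 267 on Myogel, or 1.25-fold lower (log2 FC -0.32, range -0.72 to 0.59). The ending _x_at marks a probe set of which some probes can also bind other transcripts, and the part of this in the difference was not tested. The directions of both probe sets held under each of the 6 treatments of the values, though an offset cannot change a direction. The mean log2 FC of the 2 probe sets was 0.03.

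Agreement between the probe sets of a gene was therefore partial. Of the 9 genes with more than 1 probe set, 5 had probe sets both higher and lower on Myogel as deposited. These were PARVA, PXN, PTK2, ZYX and FERMT2. When only probe sets with a mean signal at or above 142 were taken, 5 genes had more than 1. As deposited, ZYX and FERMT2 had them on both sides, whereas PARVA, PTK2 and FERMT1 did not. With the median ratio of all probe sets set to 0, PARVA, PTK2 and FERMT1 had them on both sides too. When all probe sets of a gene were averaged, FC 1.5 or more was met by VCL in the higher direction and by ILK, LIMS1 and TLN1 in the lower one, with mean log2 FCs of 0.81, -0.63, -0.84 and -1.48. Except for ILK, each of these means includes a probe set with a signal under 142 that differed by more than FC 1.5.

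**Figure D3:**
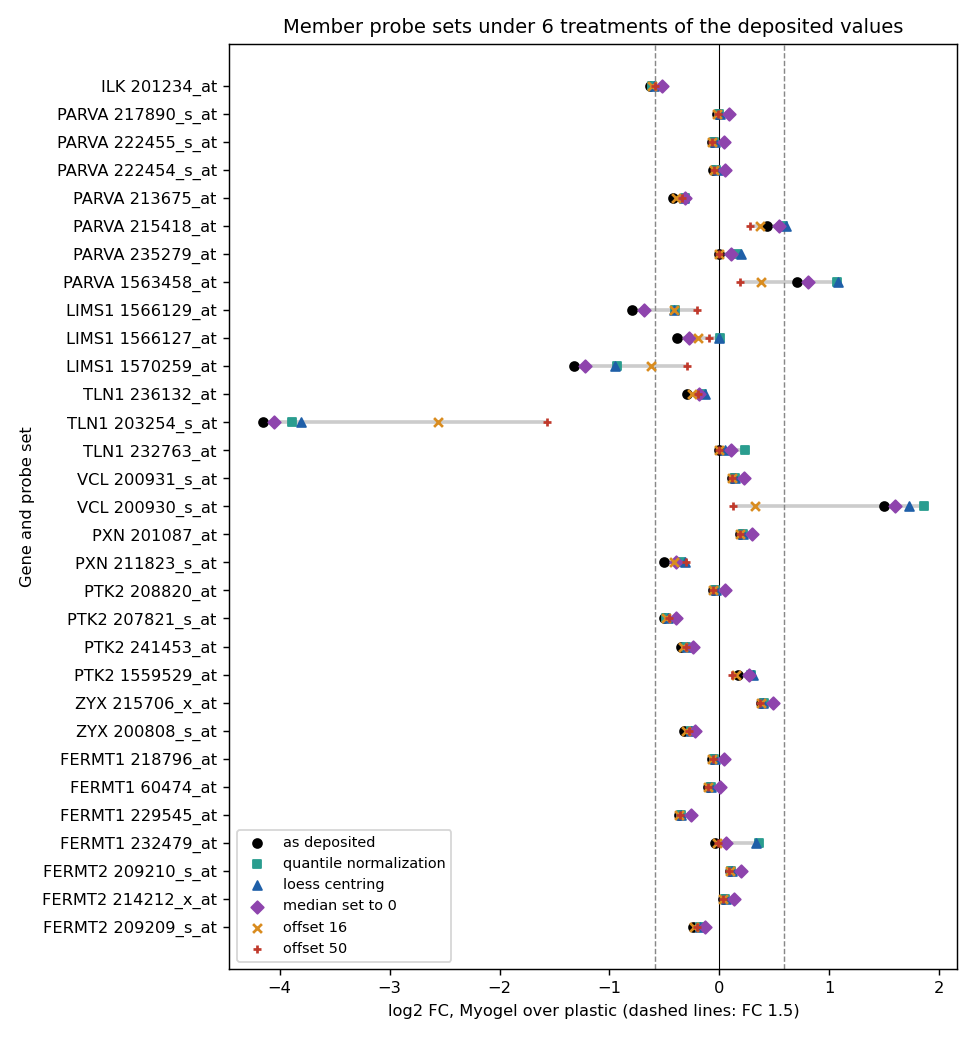
The log2 FC of Myogel over plastic (x axis, dashed lines at FC 1.5) of the 31 probe sets (y axis, with the gene) as deposited and under 5 other treatments of the values (symbols), grey bars giving the range. Bright probe sets such as VCL 200931_s_at, from 0.12 to 0.22, hardly move, while TLN1 203254_s_at moves from -4.16 to -1.57 and stays beyond FC 1.5, and VCL 200930_s_at falls inside FC 1.5 with either offset.

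The other genes of focal adhesions were described by 4 lists with 68 genes, of which 63 were measured. In the brightest probe set 3 had a higher and 2 a lower value by FC 1.5 or more, together 7.94% against 27.3% of all genes, and their median log2 FC was 0.01 against -0.07. Of the 52 with a mean signal of 142 or above, 1 was higher and 0 were lower, against 0.93% and 1.66% (2.59% together) of all such genes. That gene was GIT1, which encodes a scaffold that binds paxillin and FAK. GIT1 had 1064 on plastic and 1617 on Myogel and was 1.52-fold higher, outside the range of -0.51 to 0.48 for its signal. Its log2 FC was 0.60 as deposited and 0.58 with an offset of 50, where FC 1.5 was no longer reached.

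Among partners of the ILK complex and relatives of its members, 0 of 6 measured genes had FC 1.5 or more, and the median log2 FC was -0.11. ILKAP, a phosphatase that associates with ILK, had the largest difference among those above the median signal, with 776 on plastic and 606 on Myogel (log2 FC -0.36). The following were named after their values were seen. RSU1, which binds PINCH-1, had 1122 and 1147. PARVB, the beta-parvin, had 166 and 140 in its brightest probe set, and 4 of its 6 probe sets were lower with FC 1.5 or more, all inside the ranges for their signal. LIMS2, which encodes PINCH-2, had 217 on plastic and 176 on Myogel in its 1 probe set, a difference of 1.24-fold.

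In the list for talin, kindlins and integrin activation 1 of 10 measured genes was higher and 1 was lower, with a median log2 FC of -0.04. PIP5K1C, the kinase that makes the lipid which recruits talin, had 289 on plastic and 214 on Myogel (log2 FC -0.43), which lay in the range for its signal. The genes with FC 1.5 or more, named after their values were seen, were both dim. FERMT3, the kindlin of blood cells, had 9.95 and 32.9, and APBB1IP, an adaptor between RAP1 and talin, had 25.7 and 12.9. TLN2, which encodes talin 2 and was likewise named after its values were seen, had 4342 on plastic and 4064 on Myogel in its brightest probe set, a difference of 1.07-fold.

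In the list for FAK, Src and paxillin signaling 25 genes were measured, 2 being higher and 1 lower by FC 1.5, with a median log2 FC of -0.02. Beside GIT1 these were the dim ELMO1 (3.28 on plastic, 10.9 on Myogel) and ARHGEF6 (23.0 and 10.4), named after their values were seen. The list of actin linkers and LIM adaptors had 0 of 22 measured genes with FC 1.5 or more and a median log2 FC of 0.05. VASP, which zyxin brings to adhesions, had 1139 on plastic and 1624 on Myogel, the largest difference in that list among genes above the median signal (log2 FC 0.51, range -0.49 to 0.48, and 0.62, past FC 1.5, with the median ratio set to 0). The relatives of zyxin, named after their values were seen, were LPP, with 1580 and 2146 in its brightest probe set, also an _x_at one, and TRIP6, with 1234 and 1232. The log2 FC of LPP was 0.44 there, outside its range of -0.42 to 0.40, and 0.11 in its next brightest probe set. Of the 211 probe sets of the 4 lists, 5 lay outside the ranges for their signal. Among the 93 at or above the gene median signal 3 did, those of GIT1, VASP and LPP. A range that holds 95% leaves some probe sets outside by definition, and these counts are not above that share. Over all 211 probe sets of the 4 lists, 32.7% had FC 1.5 or more, near the 34.1% of all probe sets with 1 symbol.

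**Figure D4:**
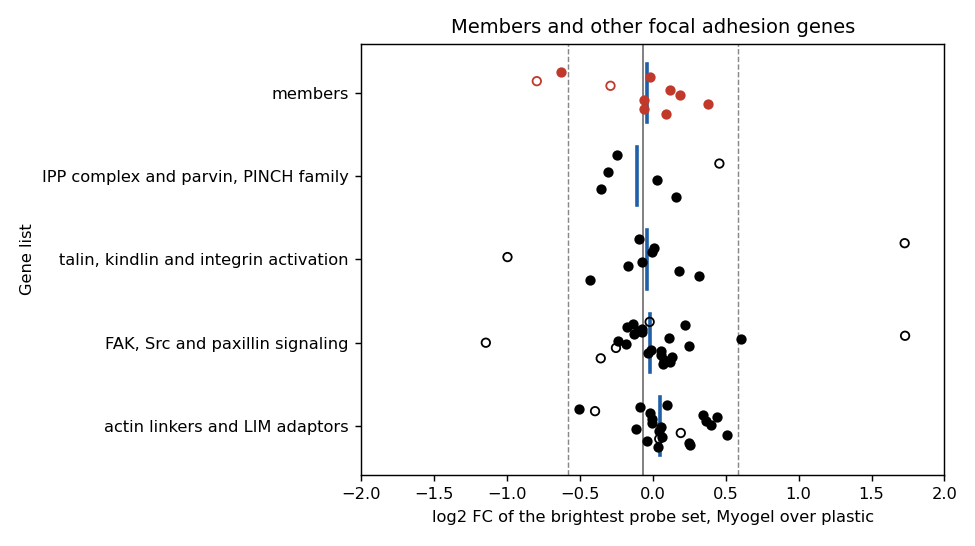
The log2 FC of the brightest probe set, Myogel over plastic (x axis), for the 10 members (red) and the 63 other measured focal adhesion genes in 4 lists (black). Filled points have a mean signal at or above 142 and open points below it, blue bars are list medians, the grey line is the median of all genes at -0.07 and dashed lines mark FC 1.5, beyond which the filled points are ILK and GIT1.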

How the data were processed

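Gene expression of HSC-3 cells on plastic and on Myogel was measured with 1 Affymetrix Human Genome U133 Plus 2.0 array of pooled RNA from 3 wells for each surface, and the groups were taken from the sample titles. The deposited intensity values were made by the authors with dChip; for its version, model and normalization, nothing is given in the sources used here. They cover 54613 probe sets and 62 controls, with 2414 probe sets on plastic and 2581 on Myogel at the floor of 1. Signal over background is the depth of an array, no detection calls were used, and the number of arrays limits the precision.

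From these values FC was computed as Myogel over plastic, with a threshold of 1.5 in either direction as in the methods of the study, with pandas 2.3.3, numpy 2.4.6, matplotlib 3.10.9 and statsmodels 0.14.6 under Python 3.11.15. The study reported a far smaller share of genes at FC 1.5 than the 34.1% of probe sets with 1 symbol found here. The calls are therefore not the same as those of the study, and the reason was not tested. Probe sets were named from the platform annotation, with symbols updated by Entrez identifier through the RefSeq table of GRCh38.p14. Of the probe sets 1801 had several symbols and 11721 are unnamed here. The brightest probe set, by mean log2 value, represented a gene. Coordinates are left out, as no file names a genome build. The members and gene lists were chosen with earlier results of these data known. The named genes were all members and, in each focal adhesion list, up to 2 higher and 2 lower genes that passed FC 1.5 with a mean signal not under the median over genes, or else the one with the largest difference. The alternatives were quantile normalization, loess centring (span 0.3), a median log2 ratio of 0, offsets of 16 and 50, thresholds of FC 1.2 and FC 2, a higher value at or above the median of all values (56.1), a difference of 100 linear units, leaving out _x_at, _s_at and _a_at probe sets, and means or medians over a gene's probe sets. The computation of FC, quantile normalization and loess centring were run on simulated data in which only bright probe sets were changed. The ranges of the nearest probe sets and the counts of genes were not covered by this.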

Additional observations from a re-analysis of the deposited data

How the results depend on the processing

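Each surface is 1 array, so no replicate could be left out. Alternative values were set against the SD of the 1000 nearest probe sets. No paired analysis was possible because the labels give no replicate numbers and each group has 1 sample. Of 155 member values under the 5 other treatments, 153 moved by less than this SD. The others were TLN1 203254_s_at at -2.56 (offset 16) and -1.57 (offset 50). This SD is wide for dim probe sets, so stability is not shown: VCL 200930_s_at (SD 3.33) fell from 1.49 to 0.12 with offset 50. No member with FC 1.5 or more changed direction, but an offset cannot do so and the other treatments shifted these by under FC 1.5. Quantile normalization or loess centring moved the higher share of all probe sets with FC 1.5 or more from 36.4% to 50.0% or 50.1%, and the median ratio of 0 to 42.5%.

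Counts of members are small and depended on the settings. As deposited, 2 member probe sets were higher and 4 lower. An offset of 16 gave 0 and 3 of 31, against 6.98% and 14.1% of all probe sets. An offset of 50 gave 0 and 2, against 2.27% and 4.05%. The filter on low signal gave 0 and 2 of 24, and the difference of 100 linear units gave 0 and 2 of 31, against 1.72% of all. TLN1 203254_s_at, 1 of these 2, passes the filter through its plastic value alone. FC 1.2 gave 4 and 12 of 31, FC 2 gave 1 and 2, and leaving out _x_at, _s_at and _a_at probe sets gave 1 and 3 of 18. Shares over all probe sets are not given for the filter or without these classes, nor over all genes except as deposited and with FC 1.2. Counts without a share are not read as results. Of the genes 0 were higher and 2 lower as deposited. The lower count was 1 (ILK) after quantile normalization, loess centring, either offset, the filter on low signal and the difference of 100 linear units. It was 1, now LIMS1 (-0.69), with the median ratio of 0, and 0 with FC 2. The higher count was 1 with FC 1.2 and with the mean over probe sets. Without the _x_at, _s_at and _a_at classes, FERMT2, VCL and ZYX have no value and PARVA had a log2 FC of -0.42. With the mean, which for VCL, PXN and ZYX equals the median, TLN1 had -1.48, VCL 0.81, PXN -0.16 and ZYX 0.03.

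In the focal adhesion lists 3 genes were higher and 2 lower. The counts were 2 and 0 with an offset of 16, 0 and 0 with an offset of 50, and 2 and 1 with FC 2. FC 1.2 gave 10 and 8 of 63, against 18.1% and 30.8% of all genes. The filter on low signal or the difference of 100 linear units gave 1 and 0. Leaving out the _x_at, _s_at and _a_at classes gave 4 and 7, and the mean 5 and 10. The other settings have no such share. The median log2 FC of the lists ranged from -0.08 to 0.11. Of dim probe sets (under 142) 53.9% had FC 1.5 or more. Such a difference is therefore not detectable there as more than the spread between 2 arrays.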
